A study of Mus musculus with 16 samples.

Results

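The genes described here are 10 T-cell costimulatory receptors and ligands (Cd28, Icos, Tnfrsf9, Tnfrsf4, Tnfrsf18, Cd27, Cd80, Cd86, Cd40 and Cd40lg), taken by gene symbol from a table of 18929 genes measured in 16 mouse tumors. Poly(A) RNA was sequenced from tumors of B16F10, a melanoma cell line of C57BL/6 origin, with 4 tumors in each of 4 groups. The values are FPKM, which count fragments per transcript length and per mapped fragment of a library, so levels of different genes can be compared per length. The study asked whether α-ketoglutarate (α-KG), a metabolite of the citric acid cycle, changes the response of these tumors to an antibody against PD1, an inhibitory receptor of T cells. All 10 genes were listed, and 9 of them reached 0.5 FPKM in at least 4 tumors and were tested among 12850 such genes. Cd40lg did not reach that level and is given as values alone.

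All mice were female C57BL/6 animals of 7 to 8 weeks, injected in the abdomen with 500000 B16F10 cells, and treatment by intraperitoneal injection began at a tumor volume of about 50 mm3 and went on for 9 to 11 days. The vehicle group received corn oil plus an IgG isotype antibody, the anti-PD1 group the anti-PD1 antibody, the α-KG group 100 mg/kg α-KG, and the α-KG + anti-PD1 group both agents. Groups held 6 mice, and the study's methods call the 4 sequenced tumors of each group independent. The tumors are grafts of 1 cell line with whatever host cells had entered them, so each value is a mixture of both. Which 4 of the 6 mice were sequenced is not stated.

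A T cell that meets its antigen needs a second signal to divide, survive and make cytokines. CD28 and ICOS, relatives of the immunoglobulin family, give it when bound by B7 proteins, and 4-1BB, OX40, GITR and CD27, members of the TNF receptor family, give it when bound by TNF-like ligands. CD80 and CD86 are the B7 ligands of CD28 on antigen-presenting cells, and both are also bound by the inhibitory receptor CTLA-4. CD40 on antigen-presenting cells receives a signal from CD40 ligand on activated helper T cells, after which these cells show more CD80 and CD86.

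The label of the samples was borne out by melanocyte genes. The 7 melanocyte markers (Mlana, Pmel, Dct, Tyr, Tyrp1, Mitf and Sox10) summed to between 7845 and 10572 FPKM in every tumor. The 7 T-cell markers (Cd3d, Cd3e, Cd3g, Cd247, Cd5, Cd6 and Lat) summed to 1.04 to 7.20 FPKM in vehicle, 6.77 to 23.1 under anti-PD1, 5.42 to 30.1 under α-KG and 18.8 to 166 under both agents. The 8 macrophage markers summed to 97.2 to 484, 424 to 808, 428 to 698 and 674 to 1635 FPKM in the same order, and the 5 leukocyte markers, which include Ptprc (CD45), to 19.1 to 85.3, 97.0 to 184, 258 to 282 and 140 to 528. Hemoglobin and other red cell genes moved the other way, at 10891 to 11752 FPKM with both agents and 23319 to 145323 elsewhere, and skeletal muscle genes reached 644 FPKM in vehicle tumor 4 against 2.49 to 66.7 in the other tumors. With both agents all 7 T-cell, 8 macrophage and 5 leukocyte markers were called higher than vehicle, as were 3 of 3 tested NK-cell, 6 of 6 tested dendritic-cell (0 of 6 with tumor medians aligned) and 3 of 4 regulatory T-cell markers and 0 of 2 tested B-cell markers. With α-KG alone these counts were 0 of 7, 4 of 8 and 5 of 5 for the first 3 lists, and with anti-PD1 alone 0, 1 and 1. Of all 12850 genes tested, 34.9% were called higher with both agents and 8.4% with α-KG alone. With anti-PD1 alone 0.747% were called in either direction, and with both agents 1348 genes were called lower. All 6 red cell and all 5 muscle markers were called lower with both agents than in vehicle, as were 2 of 7 melanocyte markers (2 higher and 0 lower once sums were made equal), and 0 of 4 keratinocyte markers reached the level for testing. The part of these cell types in the results was not tested. No marker list had all its genes at 0, although Klra8 (NK cells), Krt14 and Krt1 were at 0 in the vehicle tumors. The depth of each library is unknown, since no counts were used here, and low values are the least precise.

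Costimulatory RNA was highest with both agents for 9 of the 10 genes by group mean, and Cd80 alone had its highest mean with α-KG alone. Summed over the 10 genes, it was 10.2 to 18.3 FPKM in vehicle, 17.7 to 35.9 under anti-PD1, 20.3 to 29.3 under α-KG and 31.9 to 86.1 under both agents. In the last group tumors 1 and 3 summed to 81.3 and 86.1 FPKM, and tumors 2 and 4 to 33.9 and 31.9. Tumors 1 and 3 took the first and second place in that group for all 10 genes, and they also had the most T-cell marker RNA (166 and 129 FPKM, against 46.2 and 18.8 in tumors 2 and 4). In bulk tissue, more cells of a type and more RNA per cell cannot be told apart.

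**Figure D1:**
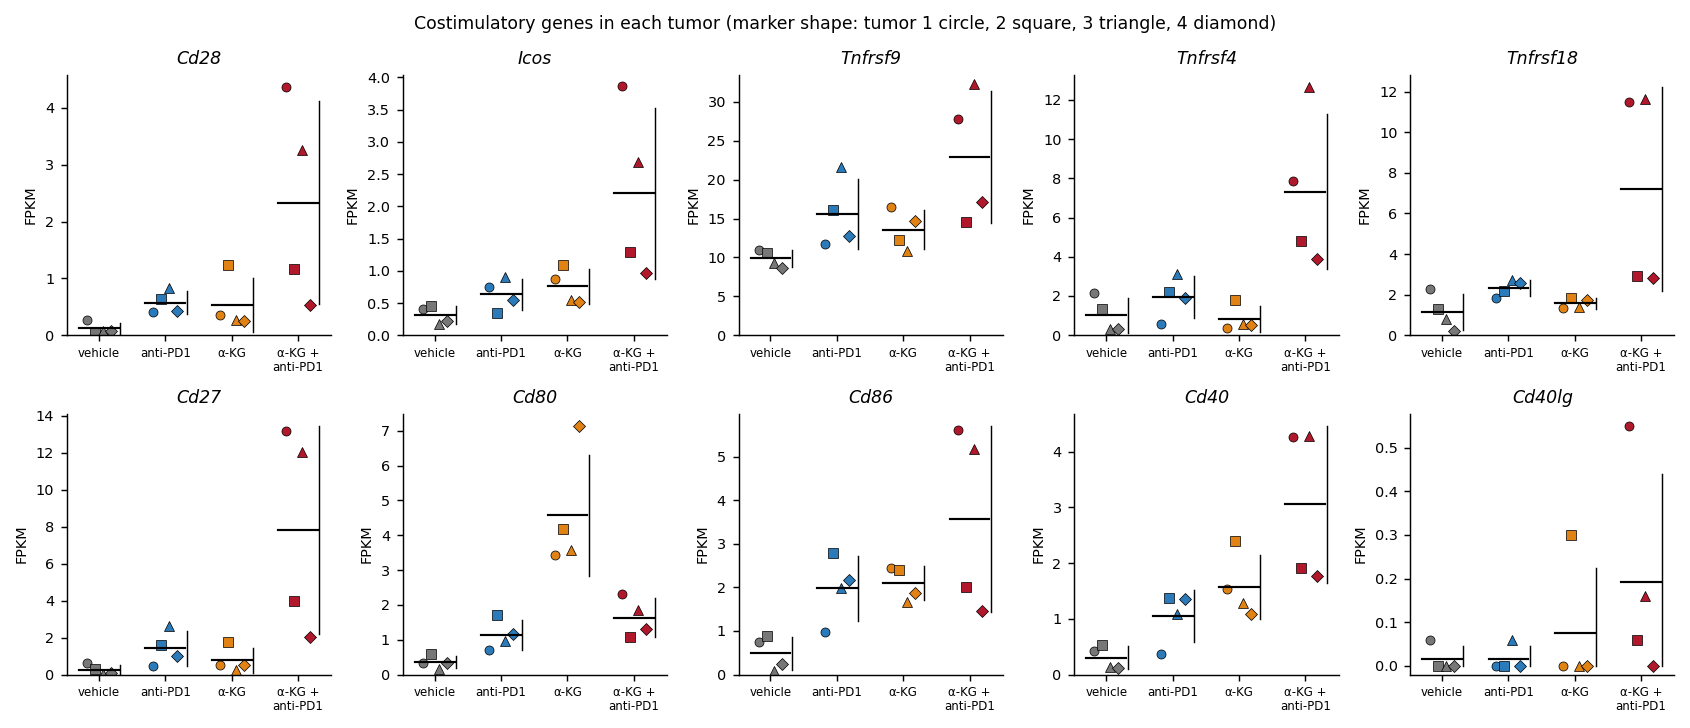
FPKM of the 10 genes (1 panel each, linear axes) in the 4 tumors of each group, with marker shapes for tumors 1 to 4, horizontal lines for group means and vertical lines for 1 SD, cut at 0. Tumors 1 and 3 of the α-KG + anti-PD1 group are the highest of that group in all 10 panels, and Cd80 alone is highest with α-KG alone.

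Against vehicle, α-KG + anti-PD1 tumors had more RNA of all 9 tested costimulatory genes, and for each of the 9 the lowest treated tumor lay above the highest vehicle tumor. Among all genes tested, 34.9% were called higher and 28.2% were wholly higher in this comparison. Cd28 entered the test through the tumors given both agents, since elsewhere only anti-PD1 tumors 2 and 3 and α-KG tumor 2 reached 0.5 FPKM. Calls are genes with an adjusted p under 0.05, from limma fitted to log2(FPKM + 1) of all 16 tumors with Benjamini-Hochberg adjustment over the 12850 genes. The median difference of the 9 genes was 1.52 on this scale, beside 0.15 over all genes tested, and a pseudocount of 1 understates the change of genes below about 1 FPKM. How the tumors are put on a common scale shifts that median over all genes, from 0.15 to -0.16 with tumor medians aligned and to 0.34 with equal sums, and it turns 4479 higher and 1348 lower genes into 2197 and 4803 with medians aligned or 6293 and 250 with equal sums. The 9 costimulatory genes were called higher under all 23 alternatives tried, these included.

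The 2 receptors of the CD28 family rose together. Cd28, the main costimulatory receptor of resting T cells (Gene ID 12487, GRCm38.p6 chr1:60746388-60773359), was at 0.27, 0.06, 0.08 and 0.08 FPKM in vehicle tumors 1 to 4. It was at 0.41, 0.63, 0.83 and 0.42 with anti-PD1, at 0.35, 1.24, 0.27 and 0.25 with α-KG, and at 4.37, 1.17, 3.26 and 0.54 with both agents. Every vehicle tumor lay below every anti-PD1 tumor, the α-KG group was low but for tumor 2, and the lowest tumor of the α-KG + anti-PD1 group overlapped the anti-PD1 and α-KG groups. With both agents the difference from vehicle was 1.40 ± 0.31 (SE, adjusted p = 0.0023), and from α-KG 1.00 ± 0.31 (adjusted p = 0.0182). Against anti-PD1, 0.92 ± 0.31 missed the threshold (adjusted p = 0.0526).

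Icos, a receptor induced on activated T cells (Gene ID 54167, chr1:60960773-61000322), lies 187 kb from the end of Cd28 on the same chromosome. It was measured at 0.41, 0.46, 0.17 and 0.22 FPKM in vehicle, 0.75, 0.35, 0.90 and 0.54 under anti-PD1, 0.88, 1.09, 0.55 and 0.51 under α-KG, and 3.86, 1.29, 2.68 and 0.97 under both agents. All α-KG tumors were above the vehicle tumors, anti-PD1 and vehicle overlapped, and with both agents every tumor exceeded every anti-PD1 tumor. The rise with both agents was 1.19 ± 0.23 over vehicle (adjusted p = 0.0011), 0.89 ± 0.23 over anti-PD1 (adjusted p = 0.0235) and 0.78 ± 0.23 over α-KG (adjusted p = 0.0145). For neither gene did anti-PD1 or α-KG alone pass the test against vehicle, and the middle groups of the order, anti-PD1 and α-KG, overlapped.

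The 4 receptors of the TNF receptor family started from very different levels, and on the log2(FPKM + 1) scale Cd27, Tnfrsf4 and Tnfrsf18 had larger differences from vehicle with both agents than the other 6 tested genes. With a pseudocount of 0.1 that order changed, with Cd27 at 4.36, Cd28 at 3.16, Cd40 at 3.01, Tnfrsf4 at 2.95, Cd86 at 2.72 and Tnfrsf18 at 2.59. Tnfrsf9 (4-1BB, Gene ID 21942, chr4:150920155-150946104) was the most abundant costimulatory gene in every group, also where T-cell markers were lowest. Its values were 11.01, 10.62, 9.34 and 8.60 FPKM in vehicle, 11.68, 16.10, 21.67 and 12.80 under anti-PD1, 16.49, 12.29, 10.78 and 14.65 under α-KG, and 27.75, 14.61, 32.34 and 17.12 under both agents. All anti-PD1 tumors lay above all vehicle tumors and the α-KG group overlapped both neighbors. With both agents it was 1.07 ± 0.23 above vehicle (adjusted p = 0.0019) and 0.67 ± 0.23 above α-KG (adjusted p = 0.0298), while the difference from anti-PD1 was 0.50 ± 0.23 (adjusted p = 0.132). Its spread in vehicle tumors was the smallest among the 10 genes, a coefficient of variation of 11.3% against 44.9% or more for the rest.

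In vehicle tumors Tnfrsf9 made up 60.2 to 84.4% of the RNA summed over the 10 genes, and under both agents 34.1 to 53.6%. It stood at 290 to 4061% of the summed Cd3d, Cd3e and Cd3g RNA in vehicle and at 24.8 to 145% with both agents, and where CD3 RNA is low this ratio is imprecise. Whether cells other than T cells carried it was not tested. Its ligand gene Tnfsf9 was similarly abundant at baseline, at 10.8 to 15.9 FPKM in vehicle and 15.1 to 17.5 with both agents (difference 0.37 ± 0.14, adjusted p = 0.0452, a call lost with tumor medians aligned, where Tnfsf9 differed by 0.06).

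Promoter sequence was found for 5 of the 10 genes in RefSeq's table for GRCm38.p6, as windows of 300 bases from 250 before to 50 after a transcript start. They were searched on both strands for TTCNNNGAA (the GAS element bound by STAT factors), GAAA, any 2 bases and GAAA (an IRF element) and the κB site, which 8.30%, 3.44% and 4.51% of 32851 promoters hold. Within these windows, matches were found for Tnfrsf9 and Tnfrsf18 and not for Tnfrsf4, Cd27 or Cd80, which says nothing on binding. The second of the 2 Tnfrsf9 windows (chr4:150927749-150928048, plus strand) is shown 5′ to 3′ because it holds both a GAS match, at bases -136 to -128 from the start, and 2 overlapping κB matches, all in capitals.
Tnfrsf9: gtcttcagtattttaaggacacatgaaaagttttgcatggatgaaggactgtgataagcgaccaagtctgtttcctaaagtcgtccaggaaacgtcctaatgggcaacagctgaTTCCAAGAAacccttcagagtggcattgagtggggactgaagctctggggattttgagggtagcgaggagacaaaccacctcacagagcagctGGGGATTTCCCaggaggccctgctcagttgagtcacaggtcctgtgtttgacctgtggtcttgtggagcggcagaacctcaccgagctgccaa

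OX40, encoded by Tnfrsf4 (Gene ID 22163, chr4:156013595-156016613), is displayed by T cells after activation. Its RNA was at 2.15, 1.33, 0.33 and 0.30 FPKM in vehicle, 0.56, 2.21, 3.12 and 1.91 under anti-PD1, 0.39, 1.79, 0.56 and 0.54 under α-KG, and 7.87, 4.80, 12.66 and 3.91 under both agents. Here the 3 other groups overlapped one another and the 4 tumors given both agents stood above all 12 of them. The differences were 2.02 ± 0.37 from vehicle (adjusted p = 0.00089), 1.46 ± 0.37 from anti-PD1 (adjusted p = 0.0232) and 2.13 ± 0.37 from α-KG (adjusted p = 0.0010). α-KG alone left Tnfrsf4 at -0.11 ± 0.37 against vehicle, a sign that turned without vehicle tumor 1 (0.13).

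Tnfrsf18, which encodes GITR, a receptor of activated and regulatory T cells (Gene ID 21936, chr4:156026322-156028894), begins 9.71 kb after the end of Tnfrsf4 on the same strand. It was at 2.27, 1.31, 0.81 and 0.20 FPKM in vehicle, 1.84, 2.20, 2.72 and 2.55 under anti-PD1, 1.32, 1.83, 1.38 and 1.76 under α-KG, and 11.51, 2.94, 11.63 and 2.80 under both agents. With both agents all 4 tumors were above the rest, tumors 1 and 3 far above and tumors 2 and 4 just above the highest anti-PD1 tumor. The difference was 1.79 ± 0.37 from vehicle (adjusted p = 0.0018) and 1.44 ± 0.37 from α-KG (adjusted p = 0.0077), and that from anti-PD1 was 1.08 ± 0.37 (adjusted p = 0.0594). The Tnfrsf18 window (chr4:156026072-156026371, plus strand) is shown for its GAS match, at bases -99 to -91 from the start, in capitals.
Tnfrsf18: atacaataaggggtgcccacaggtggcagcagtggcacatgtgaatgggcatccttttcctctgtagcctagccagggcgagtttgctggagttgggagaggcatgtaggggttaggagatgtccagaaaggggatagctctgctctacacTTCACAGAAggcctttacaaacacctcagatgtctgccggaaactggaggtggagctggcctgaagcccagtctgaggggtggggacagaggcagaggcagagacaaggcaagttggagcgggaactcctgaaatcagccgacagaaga

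Cd27, a receptor of naive and memory T cells that binds CD70 (Gene ID 21940, chr6:125232620-125237136), had the largest difference of the 9 genes. It was at 0.64, 0.28, 0.05 and 0.09 FPKM in vehicle, 0.44, 1.62, 2.61 and 0.99 under anti-PD1, 0.52, 1.78, 0.27 and 0.54 under α-KG, and 13.18, 4.00, 12.06 and 2.04 under both agents. Vehicle, anti-PD1 and α-KG tumors overlapped, and with both agents tumor 4 fell below anti-PD1 tumor 3 while the other 3 lay above all remaining tumors. The difference was 2.55 ± 0.43 from vehicle (adjusted p = 0.00056), 1.67 ± 0.43 from anti-PD1 (adjusted p = 0.0227) and 2.10 ± 0.43 from α-KG (adjusted p = 0.0021). In group means this was 0.265 ± 0.269 FPKM in vehicle and 7.82 ± 5.62 with both agents (SD, n = 4).

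Set against CD3 RNA, these receptors had different ratios. Cd27 had a median of 15.6% of the summed Cd3d, Cd3e and Cd3g RNA in vehicle, 14.0% under anti-PD1, 12.0% under α-KG and 14.0% under both agents. Tnfrsf9 had medians of 906%, 174%, 380% and 44.0%, and Icos of 27.1%, 7.28%, 18.3% and 3.91%. Cd28 lay at 2.52 to 34.8% in vehicle and 3.90 to 4.58% with both agents. These are levels in ratio, not tests, and CD3 RNA in vehicle, where the ranges are widest, was near the bottom of the scale.

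**Figure D2:**
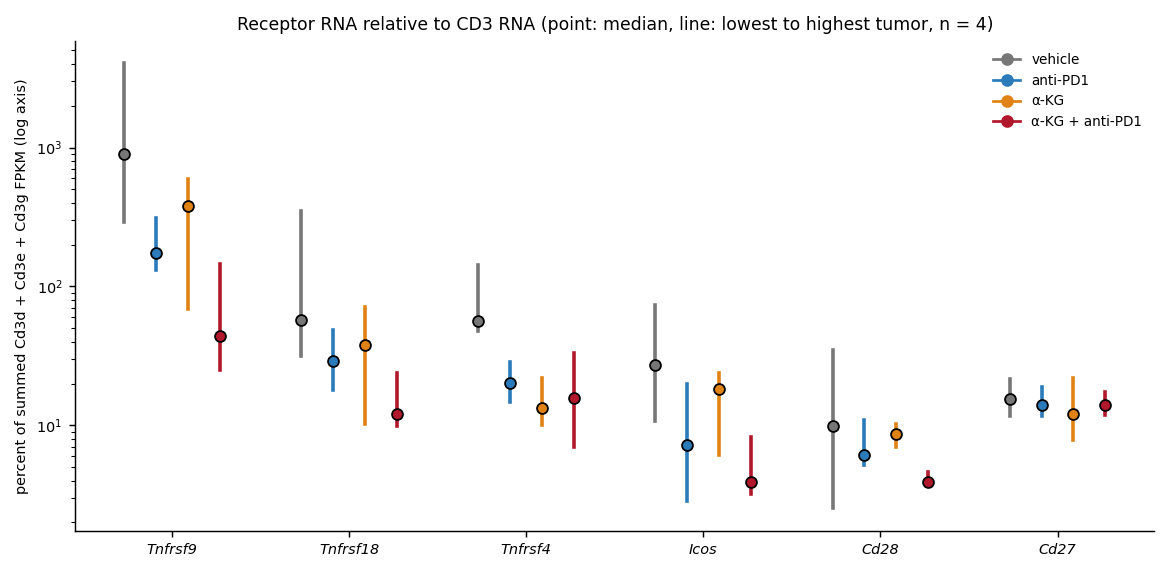
RNA of 6 receptor genes as a percent of the summed Cd3d, Cd3e and Cd3g FPKM on a log axis, with the median (point) and the lowest to highest of 4 tumors (line) in each group. Cd27 has a median of 12.0 to 15.6% in all 4 groups, and Tnfrsf9 ranges from 906% in vehicle to 44.0% with both agents.

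Of the 2 B7 ligands, Cd80 had its highest values with α-KG alone, while for Cd86 the treated groups overlapped. Cd80 (Gene ID 12519, chr16:38457430-38495958) was at 0.32, 0.58, 0.17 and 0.33 FPKM in vehicle, 0.70, 1.71, 0.95 and 1.17 under anti-PD1, 3.42, 4.17, 3.58 and 7.14 under α-KG, and 2.31, 1.07, 1.86 and 1.31 under both agents. Every α-KG tumor was above all 12 other tumors, every vehicle tumor below them, and the anti-PD1 and α-KG + anti-PD1 groups overlapped. The group means were 0.350 ± 0.170, 1.13 ± 0.430, 4.58 ± 1.74 and 1.64 ± 0.557 FPKM (SD, n = 4) in this order. α-KG alone raised Cd80 by 2.01 ± 0.20 over vehicle (adjusted p = 4.9e-06), both agents by 0.95 ± 0.20 (adjusted p = 0.0020), and anti-PD1 alone differed by 0.65 ± 0.20, which missed the threshold (adjusted p = 0.126). With both agents Cd80 was lower than with α-KG alone, by -1.06 ± 0.20 (adjusted p = 0.0015), and from anti-PD1 it differed by 0.30 ± 0.20 (adjusted p = 0.299).

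Cd86, the other CD28 ligand (Gene ID 12524, chr16:36568956-36666158), lies 1791 kb from Cd80 on the same chromosome. Its values were 0.74, 0.88, 0.08 and 0.25 FPKM in vehicle, 0.98, 2.78, 1.99 and 2.16 under anti-PD1, 2.45, 2.40, 1.66 and 1.87 under α-KG, and 5.62, 2.00, 5.18 and 1.46 under both agents. All treated tumors were above all vehicle tumors, and the 3 treated groups overlapped. Cd86 rose by 1.09 ± 0.30 with α-KG (adjusted p = 0.0212) and by 1.52 ± 0.30 with both agents (adjusted p = 0.0012), and with anti-PD1 the difference was 1.00 ± 0.30 (adjusted p = 0.109). The call for α-KG was lost without vehicle tumor 3 or 4 or α-KG tumor 1 or 2, with an adjusted p of up to 0.0753. Between both agents and α-KG it differed by 0.44 ± 0.30 (adjusted p = 0.256) and between both agents and anti-PD1 by 0.52 ± 0.30 (adjusted p = 0.223).

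The balance of the 2 ligands changed accordingly. Cd80 RNA was 1.40, 1.74, 2.16 and 3.82 times Cd86 RNA in the α-KG tumors. It was 0.411, 0.535, 0.359 and 0.897 times Cd86 with both agents, 0.477 to 0.714 times with anti-PD1 and 0.432 to 2.13 times in vehicle, where both genes were low. In all 4 α-KG tumors Cd80 exceeded Cd86, and in all 8 tumors given anti-PD1 it did not. Relative to Ptprc RNA, Cd80 was at 17.8 to 30.4% with α-KG, 10.5 to 22.0% with anti-PD1, 7.42 to 37.5% in vehicle and 5.25 to 14.0% with both agents, so on this scale the α-KG tumors lay inside the vehicle range. The leukocyte markers moved with Cd80 in the α-KG group, as given above, and their part in the rise was not tested.

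**Figure D3:**
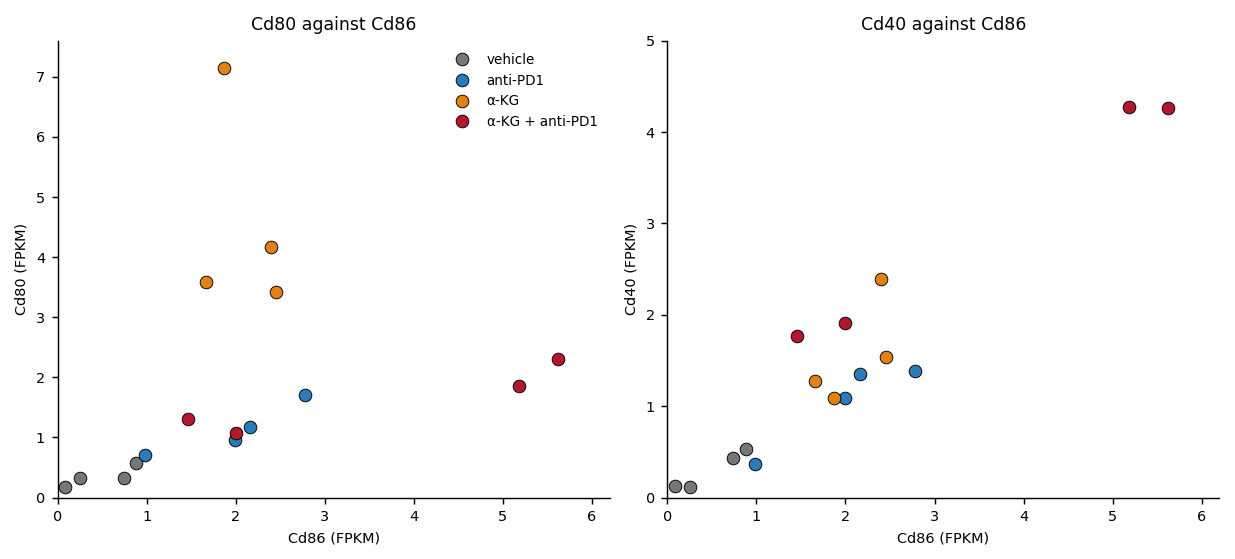
Cd80 (left) and Cd40 (right) against Cd86, in FPKM on linear axes, 1 point per tumor and 4 tumors per group. The 4 α-KG tumors stand apart at 3.42 FPKM of Cd80 or more with Cd86 no higher than 2.45, and in the Cd40 panel the 4 groups follow 1 band.

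For Cd80 the effect of anti-PD1 depended on α-KG. The interaction, the anti-PD1 effect with α-KG minus that without it, was -1.71 ± 0.29 (adjusted p = 0.0024). It was called in 11.1% of all genes tested and called lower in 3.13%. None of the other 8 tested costimulatory genes passed, the nearest being Tnfrsf4 at 1.57 ± 0.53 (adjusted p = 0.0647), which passed when tumor 2 of the α-KG group or tumor 4 of the group given both agents was left out (up to 1.80). Cd80 was called under all 22 alternatives for this contrast, with values from -2.89 to -1.51. The leukocyte markers had a median interaction of -1.40 (1 of 5 called lower) and the macrophage markers of -0.79 (0 of 8 called). The T-cell and NK-cell markers had medians of 1.03 and 0.83, beside 0.15 over all genes. The part of these cells in the Cd80 interaction was not tested. The Cd80 window (chr16:38458683-38458982, plus strand) is given because this gene had its own pattern among the costimulatory genes. It holds no match to the 3 motifs, hence no capitals. The annotated gene begins before this window, at chr16:38457430, and the sequence around that start was not searched.
Cd80: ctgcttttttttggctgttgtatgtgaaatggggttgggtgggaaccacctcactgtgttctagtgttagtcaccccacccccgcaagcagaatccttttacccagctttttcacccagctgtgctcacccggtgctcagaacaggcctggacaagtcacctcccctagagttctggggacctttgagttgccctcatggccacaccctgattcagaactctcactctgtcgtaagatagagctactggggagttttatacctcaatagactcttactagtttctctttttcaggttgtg

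Cd40 and its ligand were unequal. Cd40, a TNF receptor family member of antigen-presenting cells (Gene ID 21939, chr2:165055614-165071654), was at 0.43, 0.53, 0.13 and 0.12 FPKM in vehicle, 0.37, 1.38, 1.09 and 1.35 under anti-PD1, 1.54, 2.39, 1.28 and 1.09 under α-KG, and 4.26, 1.91, 4.28 and 1.77 under both agents. The tumors given both agents were all above the anti-PD1 tumors but overlapped the α-KG group, and all α-KG tumors were above vehicle. It rose by 0.97 ± 0.24 with α-KG (adjusted p = 0.0124) and by 1.58 ± 0.24 with both agents (adjusted p = 0.00046) over vehicle, and by 0.95 ± 0.24 with both agents over anti-PD1 (adjusted p = 0.0227). Anti-PD1 alone differed from vehicle by 0.63 ± 0.24 (adjusted p = 0.209), and both agents from α-KG by 0.61 ± 0.24 (adjusted p = 0.0569).

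Cd40lg (Gene ID 21947, chrX:57212143-57224042) was listed at 0 in 10 of the 16 tumors. Vehicle tumor 1 and anti-PD1 tumor 3 were at 0.06 FPKM and α-KG tumor 2 at 0.30. With both agents the values were 0.55, 0.06, 0.16 and 0. In that group 3 tumors were thus above 0 against a single tumor in each other group, at levels too low for a test.

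**Figure D4:**
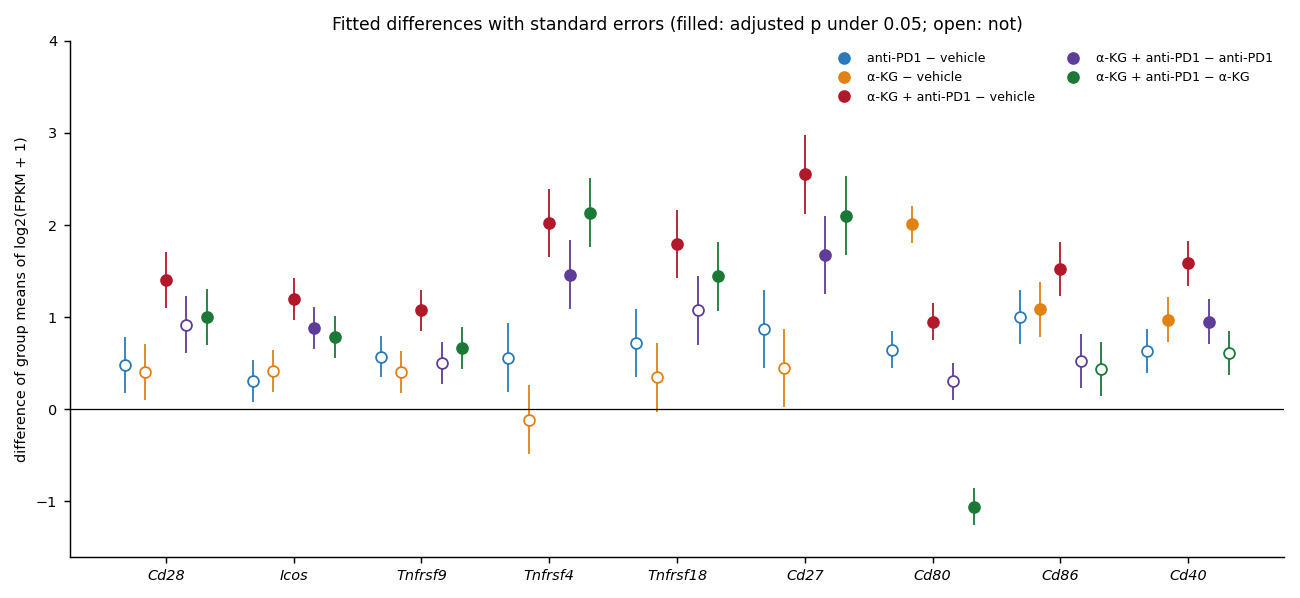
Fitted differences of group means of log2(FPKM + 1) for the 9 tested genes (points) with their standard errors (lines) in 5 comparisons, filled where the adjusted p was under 0.05. The red points (both agents minus vehicle) are filled for all 9 genes, and the green point of Cd80 (both agents minus α-KG) lies below 0 at -1.06.

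By comparison, the genes were called unevenly. The 5 comparisons share groups of tumors, so they are not independent of one another. With anti-PD1 alone against vehicle 0 of 9 passed the limma test, where 0.747% of all genes did (96 genes, a count that ran from 0 to 885 without single tumors), and 4 of 9 (Cd28, Tnfrsf9, Cd80 and Cd86) were wholly above vehicle, against 5% of all genes. An unadjusted p under 0.05 was reached by 4 of 9 (Tnfrsf9, Cd80, Cd86 and Cd40), and by 16.6% of all genes. With α-KG alone 3 of 9 were called higher (Cd80, Cd86 and Cd40), genes known from antigen-presenting cells, and none of the 6 receptors of T cells was, while 8.4% of all genes were called higher. Here 4 of 9 (these 3 and Icos) were wholly above vehicle, against 10.1% of all genes.

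Adding α-KG to anti-PD1 raised 4 of 9 (Icos, Tnfrsf4, Cd27 and Cd40), where 14.2% of all genes were called higher, and 4 of 9 (Icos, Tnfrsf4, Tnfrsf18 and Cd40) were wholly higher, against 13.6%. This count was the least stable, at 0 without anti-PD1 tumor 1 or 4 or without α-KG + anti-PD1 tumor 1 or 3, and at 0 when only these 2 groups were fitted. Without those single tumors the adjusted p reached 0.0788 for Icos, 0.0920 for Tnfrsf4, 0.0912 for Cd27 and 0.0916 for Cd40. The calls over all genes fell with the same tumors, from 1819 higher to 202 and 289 without anti-PD1 tumor 1 and 4, and to 917 and 324 without tumor 1 and 3 of the group given both agents. Adding anti-PD1 to α-KG raised the 6 receptors of T cells (31.8% of all genes were called higher) and lowered Cd80 (6.47% were called lower), with 3 genes wholly higher (Tnfrsf4, Tnfrsf18 and Cd27, against 29.7% of all genes) and Cd80 wholly lower (against 5.68%). Of the 6, Cd28 and Tnfrsf9 lost their call when tumor 3 of the α-KG group or tumor 1 or 3 of the group given both agents was left out, and Tnfrsf9 also when α-KG tumor 2 was. Cd28 then fell to as little as 0.71 (adjusted p up to 0.0620) and Tnfrsf9 to 0.48 (adjusted p up to 0.104). A scaling also ended calls in this comparison. With tumor medians aligned Cd28, Icos and Tnfrsf9 came to 0.72, 0.51 and 0.39 (adjusted p = 0.0584, 0.0770 and 0.111), with quantile normalization Icos and Tnfrsf9 to 0.51 and 0.46 (adjusted p = 0.0633 and 0.0906), and with only these 2 groups fitted Cd28 and Tnfrsf9 missed as well. Tnfrsf4, Tnfrsf18, Cd27 and Cd80 were called in all 23 alternatives. The direction of all 9 differences in both comparisons held when tumor medians were aligned or sums made equal. With quantile normalization Cd80 came to -0.0023 between both agents and anti-PD1.

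Across the 16 tumors the genes rose and fell together, apart from Cd80. Pearson's r of log2(FPKM + 1) was 0.71 to 0.97 (median 0.87) over the 28 pairs without Cd80, and 0.01 to 0.60 (median 0.29) over the 8 pairs with it. Taken as deviations from the group means, the ranges were 0.56 to 0.95 and 0.23 to 0.60. The closest pair was Cd28 and Cd27, at 0.97. These values describe 16 tumors that share groups and unknown depths, and carry no test.

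**Figure D5:**
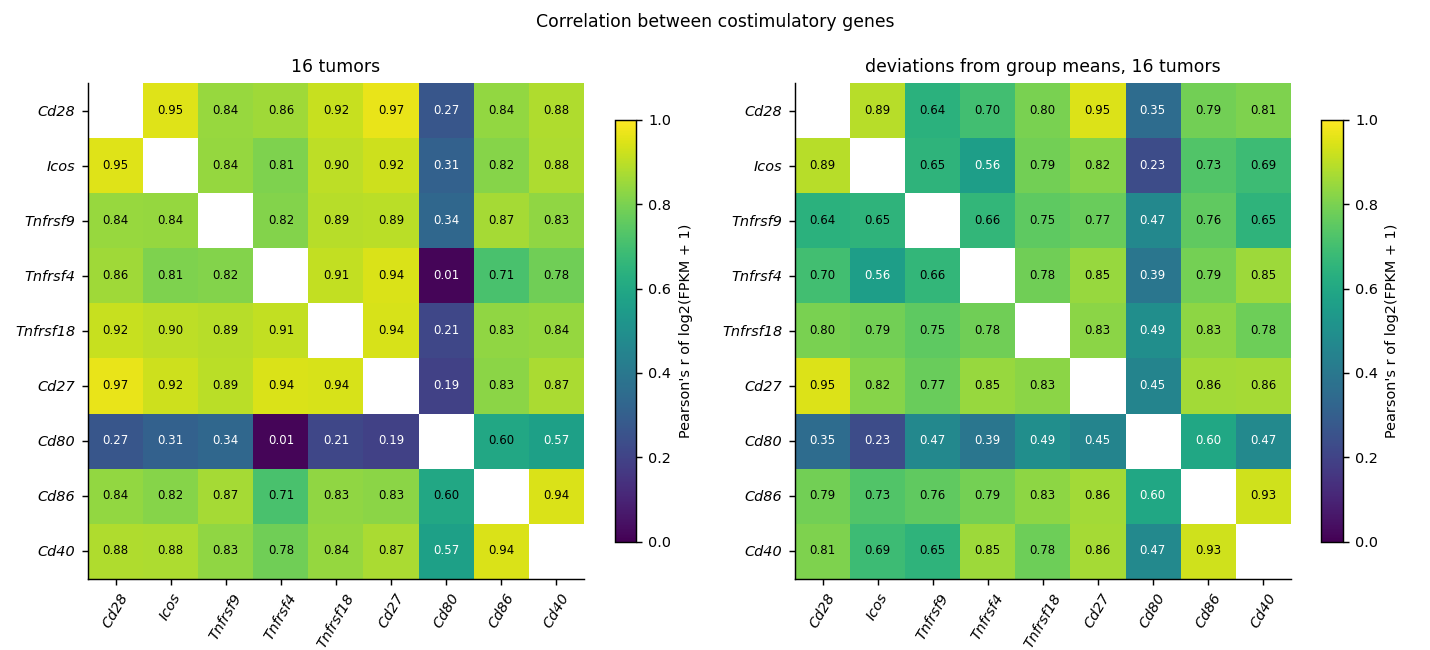
Pearson's r of log2(FPKM + 1) between the 9 tested genes over 16 tumors (left) and of their deviations from group means (right), with the color scale from 0 to 1. The Cd80 row and column stand out at 0.01 to 0.60 on the left, while the other pairs lie at 0.71 to 0.97.

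For correlations with markers, each marker list was taken as the mean log2(FPKM + 1) of its tested genes. The T-cell markers so taken followed Cd27 and Cd28 most closely, at r = 0.99 and 0.98 over the 16 tumors, and Cd80 least, at 0.24. The NK-cell markers were nearly as close to Cd27 and Cd28, at 0.97 and 0.96. For Icos, Tnfrsf9 and Tnfrsf18 r was 0.932, 0.883 and 0.939 with NK-cell markers and 0.931, 0.857 and 0.928 with T-cell markers. For Tnfrsf4 it was 0.883 and 0.926, so these values do not single out T cells. Cd86 and Cd40 had r = 0.93 and 0.90 with the macrophage markers and 0.85 and 0.90 with the T-cell markers. Cd80 was closest to the leukocyte markers, at 0.79. By the highest r among all tested genes outside the set, with up to 3 named for each, Cd28 was most like Skap1 and Grap2 (0.996 and 0.990), which encode adaptors of T-cell receptor signaling. Cd27 was most like Ptpn22, Cd8a and Zap70 (each 0.99) and Icos like Cd4, Nfatc1 and Egr2 (0.97, 0.96 and 0.96). For the other TNF receptors the nearest genes were Etv6, Dipk2a and Ripk1 for Tnfrsf9 (0.97, 0.96 and 0.95), Mbnl1, Prf1 and Hhatl for Tnfrsf4 (each 0.97) and Serpinb6b, Taok3 and Shtn1 for Tnfrsf18 (0.98, 0.97 and 0.96). Cd80 was nearest to Plaur, Srgn and Ier5 (0.98, 0.98 and 0.97), Cd86 to Il2rg, Lfng and Ifi209 (each 0.97) and Cd40 to Ifi209, Epsti1 and Amz1 (0.99, 0.98 and 0.98).

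The partners of these receptors were listed as 15 genes, of which 8 reached the level for testing. Against vehicle all 8 were called higher with both agents (median difference 1.37, against 0.15 over all genes), 0 of 8 with anti-PD1, and 1 of 8 with α-KG. Of these, Cd226 reached the level for testing largely through the tumors given both agents. It was at most 0.10 FPKM in vehicle, 0.42 with anti-PD1 and 0.50 with α-KG. Passing the filter that way favors a call in this comparison. Of all genes tested, 34.9% were called higher with both agents and 8.4% with α-KG. With anti-PD1 0.747% of all genes were called in either direction. With tumor medians aligned or quantiles equalized, 6 of the 8 were called higher with both agents, without Icosl and Tnfsf9. CTLA-4, the inhibitory receptor that competes with CD28 for CD80 and CD86, is encoded by Ctla4, which was at 0.07 to 0.62 FPKM in vehicle, 0.36 to 0.94 under anti-PD1, 0.18 to 0.96 under α-KG and 2.44 to 8.17 under both agents. All tumors given both agents were above all others, and Ctla4 rose by 2.01 ± 0.28 over vehicle (adjusted p = 0.00042), with an interaction of 1.40 ± 0.39 (adjusted p = 0.0333). Over 22 alternatives this interaction was called in only 12, with an adjusted p of up to 0.163. Cd80 RNA was 4.34 to 19.9 times Ctla4 RNA with α-KG and 0.283 to 0.537 times with both agents. It was 0.604 to 4.71 times in vehicle and 1.01 to 1.98 times with anti-PD1. Cd28 RNA was 0.347 to 1.5 times Ctla4 RNA with α-KG and 0.221 to 0.594 times with both agents. In vehicle it was 0.0968 to 1.14 times and with anti-PD1 0.685 to 1.14 times. Outside the group given both agents Ctla4 was under 1 FPKM, so the ratios there are imprecise.

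Among the ligands, Icosl was present in every group at 1.95 to 5.01 FPKM and was 0.47 ± 0.15 higher with both agents than in vehicle (adjusted p = 0.0212), a difference that came to 0.15 with tumor medians aligned and -0.019 with quantile normalization. The ligand genes of CD27, OX40 and GITR were low and untested. Cd70 lay at 0 to 0.24 FPKM over all tumors, Tnfsf18 at 0.03 to 0.27, and Tnfsf4 at 0 to 0.10 in vehicle, 0.10 to 0.44 under anti-PD1, 0.05 to 0.12 under α-KG and 0.37 to 1.47 with both agents. In every tumor given both agents Cd27, Tnfrsf4 and Tnfrsf18 were above their ligand genes per length. Of the remaining partners the largest changes with both agents on the log2(FPKM + 1) scale were Cd2, a T-cell adhesion receptor, by 2.98 ± 0.55 (adjusted p = 0.00084) and Tnfrsf14, the receptor of LIGHT, by 1.46 ± 0.30 (adjusted p = 0.0017). With a pseudocount of 0.1 Cd2 stayed first at 4.10, and the low genes Cd226, Tnfrsf25 and Tnfsf14, at 3.22, 2.51 and 2.42, came before Tnfrsf14 at 1.62. Cd226 and Tnfrsf25 were named after their values were seen.

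Tnfsf14, the gene of LIGHT, shared the order of Cd80. It was at 0.04 to 0.20 FPKM in vehicle, 0.17 to 0.72 under anti-PD1, 1.83 to 4.04 under α-KG and 0.43 to 1.98 under both agents. α-KG raised it by 1.68 ± 0.22 over vehicle (adjusted p = 6.8e-05), it was lower with both agents than with α-KG (-0.83 ± 0.22, adjusted p = 0.0089), and its interaction was -1.17 ± 0.31 (adjusted p = 0.0271). Over 22 alternatives the Tnfsf14 interaction was called in 19, with an adjusted p of up to 0.0573. The next largest difference of a partner gene under α-KG, that of Cd2 at 1.01 ± 0.55, did not pass (adjusted p = 0.229).

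Of 24 genes that carry the signal inward from CD28 and the TNF receptors, all were tested. With both agents 21 were called higher than vehicle and 0 lower (median difference 0.94, where 34.9% of all genes were called higher). With α-KG these counts were 11 and 0 (median 0.44, against 8.4% of all genes called higher). With anti-PD1 they were 0 and 0 (median 0.38, against 0.747% of all genes called in either direction). The counts with both agents became 16 higher and 2 lower with tumor medians aligned and 15 and 2 with quantile normalization. On the log2(FPKM + 1) scale the largest changes were those of Lcp2, an adaptor of T-cell and myeloid receptors, by 2.70 ± 0.38 with both agents (adjusted p = 0.00042) and 2.67 ± 0.38 with α-KG (adjusted p = 0.00019). Lck, the kinase of CD4 and CD8, rose by 2.25 ± 0.45 with both agents (adjusted p = 0.0014), and with α-KG it differed by 0.33 ± 0.45 (adjusted p = 0.675). Traf1, an adaptor of the TNF receptors and a target of NF-κB, rose by 2.56 ± 0.31 with α-KG (adjusted p = 3.8e-05) and by 1.96 ± 0.31 with both agents (adjusted p = 0.00048).

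Adding anti-PD1 to α-KG raised 10 of these 24 genes and lowered 1, where 31.8% and 6.47% of all genes were called, so these counts lay near those over all genes. The gene called lower was Birc3, which encodes an inhibitor of apoptosis bound to TRAF2 (-0.64 ± 0.23, adjusted p = 0.0395, called in 15 of 23 alternatives). Birc3 and Traf3 were also the 2 genes of the list with a called interaction, at -1.25 ± 0.33 (adjusted p = 0.0258) and -0.56 ± 0.16 (adjusted p = 0.0345). Over 22 alternatives the Birc3 interaction was called in 20 and that of Traf3 in 10, the latter at -0.37 with equal sums (adjusted p = 0.172), and with tumor medians aligned or quantile normalization Relb and Traf1 were called too. Birc3, Traf3 and Relb were named after their values were seen. The counts of 10 and 1 turned to 4 and 7 with tumor medians aligned, 4 and 5 with quantile normalization and 11 and 0 with equal sums, so the balance of directions in this comparison depended on the scale. Adding α-KG to anti-PD1 raised 15 of the 24 (14.2% of all genes were called higher), which became 9 with medians aligned, 6 with quantile normalization and 20 with equal sums. With only these 2 groups fitted, 0 of the 12850 genes were called, and so 0 of the 24. Each of the 15 genes was called in 6 to 22 of 23 alternatives, so this count was unstable.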

How the data were processed

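The authors deposited 1 table of FPKM values (18929 genes, 16 tumors). Libraries were poly(A)-selected and strand-marked. The submitters' processing notes name HISAT, Bowtie2 and mm10 without roles or versions, and the FPKM program is not given in the sources used here. Groups came from the titles of the samples, every column was used, and no tumor was left out.

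Values were changed to log2(FPKM + 1), and the 12850 genes that reached 0.5 FPKM in 4 tumors or more were fitted with limma 3.58.1 (R 4.3.3; lmFit, contrasts.fit, eBayes with trend), 1 mean per group, with Benjamini-Hochberg adjustment over all 12850 genes and a threshold of 0.05. The fit was also run on simulated data with independent noise and larger changes than most of these genes had, which says nothing on smaller differences. Low values were searched for steps of 1 fragment: 30.3% of 7828 values lay within 0.15 of a whole step, where an even spread gives 30%, so depth stayed unknown and no count test was run. Tumors sharing a replicate number were not paired. Alternatives were another pseudocount, no filter, 3 scalings, a replicate block, only the compared groups, and leaving out each tumor.

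The costimulatory genes, the gene lists and the tests were chosen with earlier results of these data known. Named genes are all 10 members, their listed ligands and Ctla4, the 2 largest changes against vehicle in each further list, and the 3 most correlated genes of each member, apart from a gene that is not reported here. Promoters came from RefSeq (GRCm38.p6, the mm10 assembly); gene positions from the same annotation. Python 3.11.15 with pandas 2.3.3, numpy 2.4.6 and scipy 1.17.1 was used for the rest.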

Additional observations from a re-analysis of the deposited data

Results flagged for a closer look

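In 6 of 40 combinations of gene and group, 1 tumor lay far from the other 3 by Dixon's criterion. About 1 in 20 would by chance if the values were continuous and independent. These genes are correlated and Cd40lg was mostly at 0, so the 6 cannot be set against that rate. For Cd28 these were vehicle tumor 1 at 0.27 FPKM and α-KG tumor 2 at 1.24 FPKM. For Tnfrsf4 it was α-KG tumor 2 at 1.79 FPKM. For Cd40lg they were vehicle tumor 1 and anti-PD1 tumor 3, both at 0.06 FPKM, and α-KG tumor 2 at 0.30 FPKM. There the other tumors of each group were at 0, so any value above 0 would meet the criterion. In the α-KG group the 3 tumors so found were thus the same tumor, number 2, which also had T-cell markers summing to 30.1 FPKM against 5.42 to 6.59 in the other 3.

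The effect of anti-PD1 on Cd80 differed between tumors with and without α-KG, with an interaction of -1.71 ± 0.29 on the log2(FPKM + 1) scale (limma, adjusted p = 0.0024). Without α-KG the anti-PD1 group stood at 0.65 above vehicle, and with α-KG it stood at -1.06 against α-KG alone, where all 4 tumors given both agents were below all 4 α-KG tumors.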

How the results depend on the processing

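The count of 9 costimulatory genes higher with both agents than in vehicle held in all 23 alternatives. For anti-PD1 against vehicle the count of 0 became 1 with a pseudocount of 0.1 (Cd80, 1.47, adjusted p = 0.0369). For both agents against anti-PD1 the count of 4 became 2 with quantile normalization, 7 with equal sums and 0 with only the compared groups, and ranged from 0 to 6 without single tumors. Against α-KG the count of 7 became 4 with tumor medians aligned. The interaction count of 1 became 2 with equal sums and ranged from 1 to 2 without single tumors. The causes were not tested. Signs turned only for differences near 0. Cd80 between both agents and anti-PD1 came to -0.0023 with quantile normalization. Tnfrsf4 between α-KG and vehicle ranged from -0.34 to 0.13 without single tumors. The Tnfrsf9 interaction of 0.09 came to -0.045 with quantile normalization, -0.10 with medians aligned and -0.090 to 0.28 without single tumors, and that of Cd40, -0.02, to 0.14 with equal sums and -0.20 to 0.14 without single tumors.

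Over all genes, the calls for anti-PD1 against vehicle went from 96 to 312 with a pseudocount of 0.1, 5 without the filter, 201 with medians aligned, 29 with equal sums and 0 with only the compared groups. Without single tumors they came to 885 (vehicle 1), 0 (vehicle 3 or 4 or anti-PD1 2, 3 or 4) and between 7 and 192 otherwise. For α-KG against vehicle they went from 2048 to 1246 with equal sums and to 1256, 1278 and 1337 without vehicle tumor 3 or 4 or α-KG tumor 3, and their split from 1080 higher and 968 lower to 1039 and 1644 with quantile normalization. For both agents against anti-PD1 they went from 1819 and 168 to 802 and 1968 with medians aligned, 721 and 1082 with quantile normalization, 4197 and 36 with equal sums, and 0 with only the compared groups. Their total of 1987 fell to 228 and 316 without anti-PD1 tumor 1 and 4, and to 979 and 350 without tumor 1 and 3 of the group given both agents. Against α-KG they went from 4086 and 832 to 1758 and 3127 with medians aligned, and the interaction from 1027 and 402 to 389 and 633 with medians aligned and to 2394 in all with equal sums. The interaction total of 1429 came to 789, 2362 and 699 without anti-PD1 tumor 1, 2 and 4, 725 without α-KG tumor 3 and 892 when tumor 2 given both agents was left out.

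Replicate numbers do not pair the tumors: of 24 same-number pairs 9 had a correlation of deviations over 0.1 (range -0.64 to 0.41), and 4 of 16 tumors matched their own number best. With a replicate block the counts of costimulatory genes called stayed at 9, 0, 3, 4, 7 and 1, while over all genes anti-PD1 against vehicle gave 0 calls. Depth is unknown, so the precision of values under about 1 FPKM cannot be given, and no tool for counts was run.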
